A study of Mus musculus with 5 samples.

Results

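Brushed mouse skin taken 7 d after a nanomaterial was applied once was compared with brushed skin that had received PBS alone. The 24 nanomaterial mice were 8 treated with titanium dioxide (nTiO2), 8 with zinc oxide (nZnO) and 8 with silver (nAg), pooled for the test, and the 8 PBS mice were their controls, so that 32 of the 153 mice in the count table entered the comparison. They were chosen by the group row of the table and the sample sheet deposited with it. The count of each gene in each mouse is the number of RNA molecules tagged by a unique molecular identifier, read from their 3′ ends in bulk skin. Levels are given as CPM, a gene's count divided by the total count of that mouse and scaled to 1000000.

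All mice were female SKH-1, an immunocompetent hairless strain in which normal hair follicle cycling is lost, and were 7 to 8 weeks old. The upper back was stroked with a metal brush, which breaks the outer skin layer, and then received a dispersion of nTiO2, nZnO or nAg in PBS, or PBS with no particles. The PBS controls therefore share the brushing and the liquid with the nanomaterial mice. Skin of the upper back was taken 7 d later, and mice were housed in groups in a 12 h dark-light cycle. The cage of each mouse and the hour at which its skin was taken are not given in the sources used here, so each mouse was counted as 1 replicate and p-values measure the spread between mice.

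The libraries had been pooled for sequencing. Per the labels, 6 mice of each group of 8 were to be sequenced, but the count table holds 8 in each group compared here, and all were used. The mice fell into pools numbered 4 and 5, with 12 nanomaterial mice in each and 5 and 3 PBS mice. Total counts per mouse were between 809593 and 4028559 in nanomaterial mice and between 999908 and 2264027 in PBS mice. RNA integrity numbers were 7.9 to 9.6 in nanomaterial mice and 8 to 9.8 in PBS mice, where replicates 1 to 4 had 9.4 to 9.8 and replicates 5 to 8 had 8 to 8.3. Total count (p = 0.83), the share of mitochondrial counts (p = 0.542, adjusted p = 0.814) and RNA integrity (p = 0.439, adjusted p = 0.814) did not differ between nanomaterial and PBS mice beyond their spread in two-sided exact permutation tests. No pair of the 32 mice had identical counts. The defining keratinocyte genes Krt5, Krt14, Krt1 and Krt10 and the dermal collagen genes Col1a1 and Col3a1 were present in every mouse, at 260.4 CPM or more.

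The circadian clock is a feedback loop of transcription that runs in nearly every cell, the keratinocytes and fibroblasts of skin included. The proteins of Arntl (also called Bmal1) and Clock pair up and switch on the Per and Cry genes, whose proteins then hold that pair back, while the nuclear receptors made by Nr1d1 and Nr1d2 repress Arntl. Genes such as Dbp, Tef and Hlf carry the rhythm to output genes, so that Arntl and Dbp run nearly opposite to each other over the day. In skin the clock gates cell division, DNA repair and immune responses by time of day.

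Of the 4 genes called between nanomaterial and PBS skin, 3 belonged to this loop. Dbp and Per3 were higher and Arntl and Arhgap20 were lower in nanomaterial mice, and these 4 were the only genes called in edgeR's quasi-likelihood test among 12248 genes tested (0.0327% called). A gene was called at an adjusted p under 0.05 where its log2 fold change was 0.33 or larger in size. At an unadjusted p under 0.05 there were 660 genes, or 5.39%. The median log2 fold change over all genes was 0.00, with 6155 genes above 0 and 6093 below.

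The sequences below are short stretches before a transcript start of clock genes that hold a match to a motif of the clock, shown because the factors of the loop bind DNA through such motifs. The 3 motifs of the loop were searched on both strands from 250 bases before to 50 after the start of each gene's canonical transcript in GRCm39 with Gencode M39, an annotation later than the one used for counting. For Per1, Tef and Cry1 this start, and the stretch shown, lie inside the annotated gene, since other transcripts start farther upstream. These were the E-box CACGTG bound by the Arntl and Clock pair, the D-box TTATGTAA bound by Dbp, Tef, Hlf and Nfil3, and the core TAGGTCA of the element shared by the Nr1d receptors and Rora. Each line gives 30 bases of the gene's own strand with the match in capitals, and no match overlapped another.
Per3 at chr4:151129309-151129338 (minus strand): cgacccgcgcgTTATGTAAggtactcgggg
Per3 at chr4:151129262-151129291 (minus strand): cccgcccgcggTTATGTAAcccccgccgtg
Dbp at chr7:45354312-45354341 (plus strand): ttggccaaataTAGGTCAgtgtcccgcctt
Per1 at chr11:68989234-68989263 (plus strand): accccttaacgaCACGTGggccctcaattg
Tef at chr15:81695465-81695494 (plus strand): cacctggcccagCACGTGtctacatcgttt
Cry1 at chr10:85020961-85020990 (minus strand): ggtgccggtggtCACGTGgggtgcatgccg

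Per3 held 2 D-boxes, 187 and 140 bases before its transcript start, and was the only 1 of the 16 clock genes tested with that motif, which is present in 0.933% of 21757 promoters. Dbp held the receptor element 189 bases before its transcript start, again as 1 of 16 clock genes, against 2.49% of all promoters. The E-box was found in 5 of the 16 (Per1, Cry1, Tef, Bhlhe40 and Bhlhe41), against 7.82% of all promoters. A match is a description of the letters in this window and not of a bound site.

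Dbp, which encodes a transcription factor that carries the clock's rhythm to its output genes, lies at chr7:45354512-45359627 on the plus strand. Its lowest, median and highest levels were 20.4, 53.6 and 115 CPM in nanomaterial mice, against 10.2, 20.8 and 35.6 CPM in PBS mice. In 19 of the 24 nanomaterial mice Dbp was above the highest PBS mouse, and the ranges overlapped in the other 5. The log2 fold change was 1.38 (SE 0.23, n = 24 and 8, edgeR adjusted p = 0.00577), with a 95% interval of 0.90 to 1.86.

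Per3, a member of the Period family whose proteins act on the repressing side of the loop, lies at chr4:151081373-151129140 on the minus strand. It was measured at 7.57, 20 and 33.0 CPM (lowest, median, highest) in nanomaterial mice and at 7.03, 8.5 and 15.5 CPM in PBS mice. Only 4 nanomaterial mice fell within the PBS range, and 20 of 24 lay above it. Per3 was higher by a log2 fold change of 1.07 (SE 0.18, edgeR adjusted p = 0.00577), with a 95% interval of 0.71 to 1.44.

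Arntl, the activator at the head of the loop, lies at chr7:112806152-112914735 on the plus strand and moved the other way. It had 8.32, 20.1 and 31.7 CPM in nanomaterial mice, against 24.7, 35.0 and 50.9 CPM in PBS mice. Of the nanomaterial mice, 21 of 24 were below every PBS mouse. The log2 fold change was -0.84 (SE 0.16, edgeR adjusted p = 0.0187; 95% interval -1.17 to -0.52).

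Arhgap20 at chr9:51676602-51765342 (plus strand), which encodes a GTPase-activating protein, was the only called gene outside the clock list. It stood at 0.838, 4.83 and 11.1 CPM in nanomaterial mice, against 6.63, 10.3 and 14.9 CPM in PBS mice, and 22 of 24 nanomaterial mice were below all PBS mice. These levels rest on few molecules, with 1 to 27 counts per nanomaterial mouse and 10 to 19 per PBS mouse. The log2 fold change was -1.06 (SE 0.20, edgeR adjusted p = 0.0166; 95% interval -1.46 to -0.66).

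**Figure D1:**
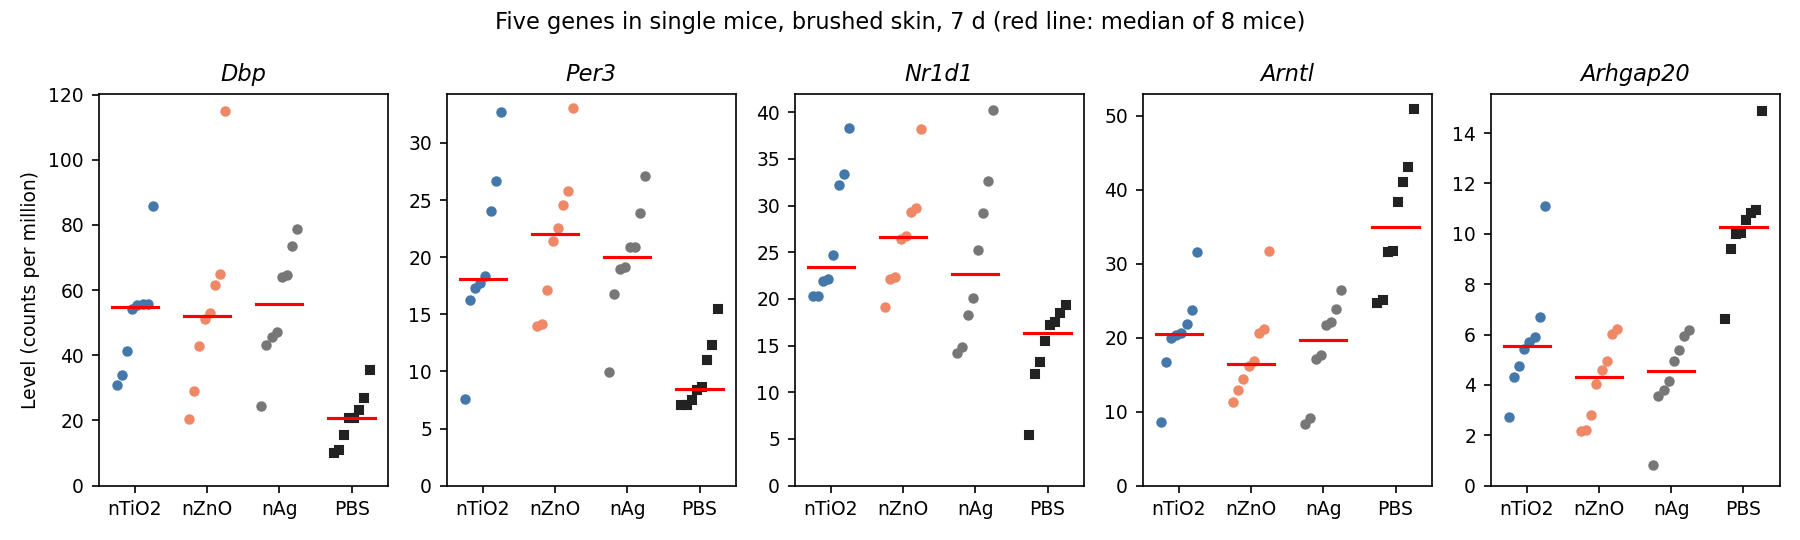
Levels of Dbp, Per3, Nr1d1, Arntl and Arhgap20 in CPM (vertical axes, linear from 0) in each of the 8 nTiO2, 8 nZnO, 8 nAg and 8 PBS mice, with the median of each group as a red line. Dbp medians were 54.9, 52.1 and 55.7 CPM in the nTiO2, nZnO and nAg groups and 20.8 CPM in the PBS group, and Arntl medians were 20.5, 16.5 and 19.6 CPM and 35.0 CPM.

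Nr1d1 at chr11:98658752-98666188 (minus strand), the nuclear receptor that represses Arntl, was above every PBS mouse in 20 of 24 nanomaterial mice but was not called. Its levels were 14.2, 25.0 and 40.3 CPM in nanomaterial mice, against 5.47, 16.3 and 19.3 CPM in PBS mice. The log2 fold change of 0.81 (SE 0.18) had an edgeR adjusted p of 0.14, while DESeq2 called the gene.

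The clock list held 20 names, of which 19 were in the count table (Bmal1 is listed there as Arntl) and 16 passed the filter on low counts. Npas2, Per2 and Ciart did not pass, so nothing was tested for them. Of the 16 tested, 2 were called higher and 1 lower. At an unadjusted p under 0.05, 7 were higher and 2 lower, against 2.79% of all genes higher and 2.6% lower, and these 9 are 56.2% of the list against 5.39% of all genes. The median log2 fold change of the list was 0.36, with 11 members above 0 and 5 below. In bulk skin, fewer cells of a type and less RNA per cell cannot be told apart, and this holds for each of these differences.

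Among the activators, Clock itself had a log2 fold change of -0.09 (SE 0.11), beside -0.84 for its partner Arntl. Among the repressors, Cry2 reached 0.44 (SE 0.16, unadjusted p = 0.0111), Per1 0.52 (SE 0.28, unadjusted p = 0.0757) and Cry1 -0.02 (SE 0.16). Bhlhe41 and Bhlhe40, which encode repressors that compete for the E-box, stood at 0.32 (SE 0.17) and 0.16 (SE 0.11). None of these passed the adjusted test.

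In the loop of nuclear receptors, Nr1d2, the close relative of Nr1d1, had a log2 fold change of 0.46 (SE 0.15, unadjusted p = 0.00408). Rora, whose product activates Arntl at the same DNA element, had -0.01 (SE 0.08). Of the output factors related to Dbp, Tef had 0.68 (SE 0.22, unadjusted p = 0.00323) and Hlf 0.41 (SE 0.17, unadjusted p = 0.0219). Nfil3, which binds the same D-box as a repressor, had -0.35 (SE 0.15, unadjusted p = 0.0274) and was below every PBS mouse in 18 of 24 nanomaterial mice. Adjusted p-values of these members were 0.687 or larger in edgeR's test.

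**Figure D2:**
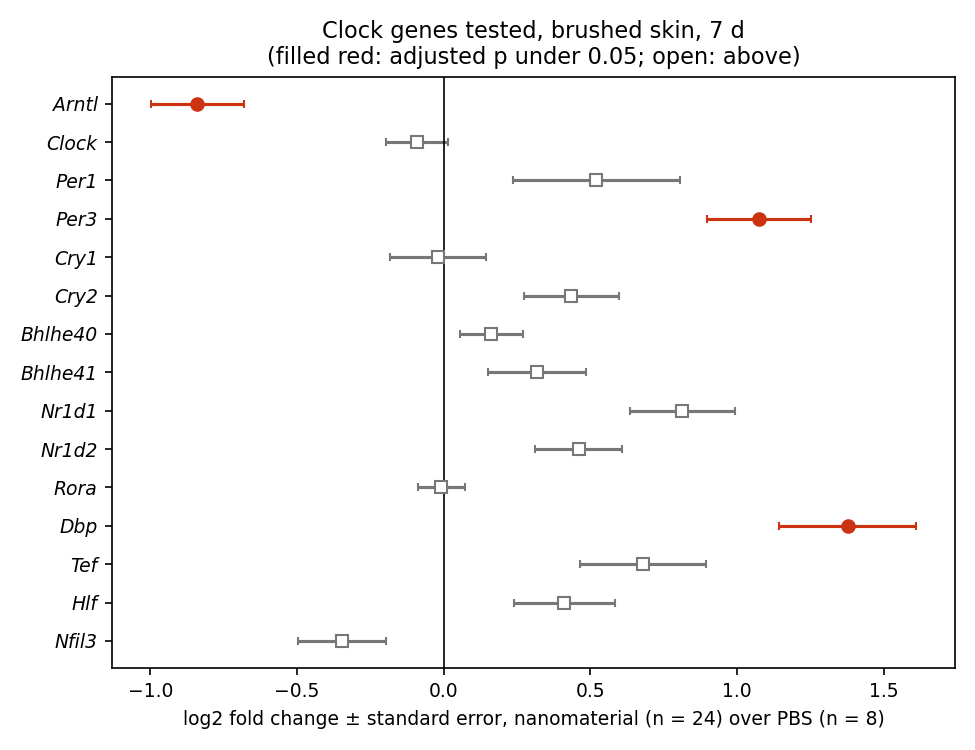
Log2 fold change of 15 of the 16 tested clock genes in nanomaterial (n = 24) over PBS (n = 8) brushed skin at 7 d (horizontal axis), with the standard error as a line and the 3 called genes filled in red. Dbp at 1.38 and Per3 at 1.07 lie farthest to the right and Arntl at -0.84 farthest to the left, while Clock, Cry1 and Rora lie between -0.09 and -0.01.

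Of 10 relations between the called genes and Nr1d1 computed across mice, 3 passed an adjusted p of 0.05 by Spearman's rho and 0 by Pearson's r. Across the 24 nanomaterial mice, which are 3 treatments, Dbp and Per3 levels were related with Pearson's r = 0.426 (permutation p = 0.038, adjusted p = 0.19) and Spearman's rho = 0.550 (permutation p = 0.0059, adjusted p = 0.035), adjusted over the 10. Without the 2 mice farthest from the median of Dbp r was 0.379, and within pools 4 and 5 it was 0.206 and 0.756. Dbp and Arntl had r = -0.359 (permutation p = 0.086, adjusted p = 0.29) and rho = -0.337 (permutation p = 0.11) in the same mice. Across the 8 PBS mice Dbp and Arntl had r = -0.840 (exact permutation p = 0.01, adjusted p = 0.1) and rho = -0.881 (exact permutation p = 0.0072, adjusted p = 0.035), and r was -0.641 without the 2 mice farthest from the median. With 5 and 3 PBS mice the pools held too few for a value each. The PBS mice fell into a set of higher and a set of lower RNA integrity, which also differed in Dbp and Arntl levels, as described below. The permutation treats all 8 as interchangeable, so its p also takes in the difference between these sets. Dbp and Arhgap20 had r = -0.105 and rho = -0.519 in nanomaterial mice (permutation p = 0.62 and 0.011, adjusted p = 0.69 and 0.035), and r = -0.261 and rho = 0.238 in PBS mice. Per3 and Arntl had r = -0.137 and rho = -0.158 in nanomaterial mice (permutation p = 0.52 and 0.46) and r = -0.168 and rho = 0.048 in PBS mice (exact permutation p = 0.69 and 0.93). Dbp and Per3 in PBS mice had r = 0.334 and rho = 0.238 (exact permutation p = 0.41 and 0.58).

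The PBS mice also differed among themselves. PBS replicates 1 to 4, those of higher RNA integrity, had 20.9 to 35.6 CPM of Dbp and 24.7 to 31.7 CPM of Arntl. PBS replicates 5 to 8 had 10.2 to 20.8 CPM of Dbp and 38.3 to 50.9 CPM of Arntl. For Dbp the 2 sets of PBS mice nearly touched, at 20.8 and 20.9 CPM. How many of all genes set these mice apart in the same way was not computed. Against replicates 1 to 4 alone the log2 fold changes of Dbp, Per3, Arntl and Arhgap20 were 1.05, 1.05, -0.59 and -1.27, and against replicates 5 to 8 alone they were 1.83, 1.12, -1.05 and -0.78. With only 4 PBS mice no gene was called in either case, although 697 and 812 genes had an unadjusted p under 0.05. Replicates 2 to 4 were all the PBS mice of pool 5, so in PBS mice the split by integrity and that by pool differ by replicate 1 alone and are nearly 1 check. With the RNA integrity number in the model, the same 4 genes were called as without it.

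Within pool 4, the log2 fold changes of Dbp, Per3, Arntl and Arhgap20 were 1.73, 1.14, -0.94 and -0.79, and within pool 5 they were 0.98, 1.00, -0.69 and -1.44. No gene was called within either pool, where 582 and 543 genes had an unadjusted p under 0.05. Dbp and Per3 were called whichever of the 32 mice was left out. Arntl was not called without PBS replicate 2, 3, 5, 6, 7 or 8 (largest edgeR adjusted p = 0.122), nor Arhgap20 without PBS replicate 2, 3, 4 or 6 (largest edgeR adjusted p = 0.116). Leaving out PBS replicate 2, 3 or 6 left 2 genes called, Dbp and Per3.

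The 3 materials were then set apart, to ask whether the clock genes differed from PBS with each of them. All 3 share the same 8 PBS mice, so their values are given side by side. The log2 fold changes in nTiO2, nZnO and nAg mice were 1.28, 1.40 and 1.45 for Dbp (SE 0.28 each), and 1.05, 1.13 and 1.05 for Per3 (SE 0.21 each). They were 0.82, 0.85 and 0.76 for Nr1d1 (SE 0.22 each), -0.72, -0.96 and -0.87 for Arntl, and -0.82, -1.27 and -1.16 for Arhgap20. With 8 mice of 1 material against 8 of PBS no gene was called by edgeR for any material (0% of 12248), and 905, 657 and 594 genes had an unadjusted p under 0.05. In this fit the smallest edgeR adjusted p of Dbp and Per3 was 0.0658, in nZnO mice. DESeq2 called 2, 3 and 3 genes for nTiO2, nZnO and nAg, with Dbp and Per3 among them each time. The edgeR fit with no filter on low counts also called Dbp and Per3 for each material.

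Between materials, the 95% interval of each difference included 0 for all 5 genes. The difference in Dbp was 0.16 for nAg minus nTiO2 (95% interval -0.35 to 0.68), 0.05 for nAg minus nZnO (-0.47 to 0.57) and 0.11 for nZnO minus nTiO2 (-0.41 to 0.63). For Per3 the 3 differences lay between -0.09 and 0.08, with intervals from -0.48 at the lowest to 0.47 at the highest. For Arhgap20 the largest was -0.45 for nZnO minus nTiO2 (95% interval -1.01 to 0.11). These intervals leave room for differences between materials of up to about that size.

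Only 2 genes were called between materials, both for nAg minus nTiO2 (0.0163% of 12248 genes, with 974 at an unadjusted p under 0.05). Hint1, which encodes a small hydrolase of the histidine triad family, had 644, 709 and 809 CPM (lowest, median, highest) in nAg mice, against 509, 547 and 615 CPM in nTiO2 mice, and the groups did not overlap. Its log2 fold change was 0.41 (SE 0.07, edgeR adjusted p = 0.0103). 2210016F16Rik, a gene known by its clone name, had 72.1, 86.4 and 98.9 CPM in nAg mice, against 99.6, 130 and 190.2 CPM in nTiO2 mice, with a log2 fold change of -0.60 (SE 0.11, edgeR adjusted p = 0.0362). Over all 24 nanomaterial mice against PBS the same genes had log2 fold changes of 0.12 and 0.03 and were not called. A test over the 3 materials at once called the same 2 (edgeR adjusted p = 0.0242 for Hint1 and 0.0394 for 2210016F16Rik). Hint1 was called whichever of the 16 nAg and nTiO2 mice was left out, but missed the threshold with no filter on low counts (edgeR adjusted p = 0.0727). 2210016F16Rik was not called without nTiO2 replicate 2, 3 or 5 or any of nAg replicates 2 to 8 (largest edgeR adjusted p = 0.161). RNA integrity had a median of 9.1 (8.6 to 9.4) in nAg mice and 8.3 (7.9 to 9.3) in nTiO2 mice. In nZnO mice its median was 8.5 (8.1 to 9.6), with 669 to 710 CPM of Hint1 and 83.3 to 101 CPM of 2210016F16Rik. For nZnO minus nTiO2 the log2 fold changes of these genes were 0.33 and -0.51 (edgeR adjusted p = 0.151 for each). PBS replicates 1 to 4, of higher integrity, had 653 to 667 CPM of Hint1 and 81.9 to 96.6 CPM of 2210016F16Rik. PBS replicates 5 to 8 had 510 to 594 and 107 to 133 CPM. The part of RNA integrity in the difference between nAg and nTiO2 mice was not tested.

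No gene was called for nAg minus nZnO (612 at an unadjusted p under 0.05, and 0 called by DESeq2) or for nZnO minus nTiO2 (946, and 16 called by DESeq2).

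A second set of 8 mice had been brushed and had received no PBS. Against these, Dbp, Per3 and Nr1d1 were called higher in nanomaterial mice (3 of 12119 genes, 0.0248%), with log2 fold changes of 1.31, 1.06 and 0.96 (edgeR adjusted p = 0.0302 for each). Arntl at -0.43 (adjusted p = 0.705) and Arhgap20 at -0.86 (adjusted p = 0.145) were not called. Between PBS mice and brushed mice without PBS no gene was called by edgeR (0% of 11841, with 644 at an unadjusted p under 0.05), and the log2 difference in Arntl, PBS minus brushed without PBS, was 0.41 (SE 0.15, unadjusted p = 0.0122).

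The same treatments had been sampled at 24 h, which asks whether the difference was already there. At 24 h Dbp had a log2 fold change of 0.57 (SE 0.24), Per3 0.49 (SE 0.16) and Arntl -0.46 (SE 0.24) in nanomaterial over PBS mice, and none of 12436 genes was called (0%, with 537 at an unadjusted p under 0.05). Arhgap20 stood at -0.02 (SE 0.32). The effect at 7 d minus that at 24 h was 0.81 for Dbp (95% interval 0.13 to 1.495), 0.58 for Per3 (0.10 to 1.06), -0.38 for Arntl (-1.004 to 0.25) and -1.04 for Arhgap20 (-1.85 to -0.24). These genes were picked by their difference in the same 7 d mice, so their intervals lean towards a larger effect at 7 d. Tested over all genes, none of these differences passed (adjusted p = 1 in edgeR, 0% called, 484 genes at an unadjusted p under 0.05, and 0 called by DESeq2 with 460). The time points were sequenced in separate pools, so pool and time cannot be told apart in the levels, while each effect is measured within pools.

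**Figure D3:**
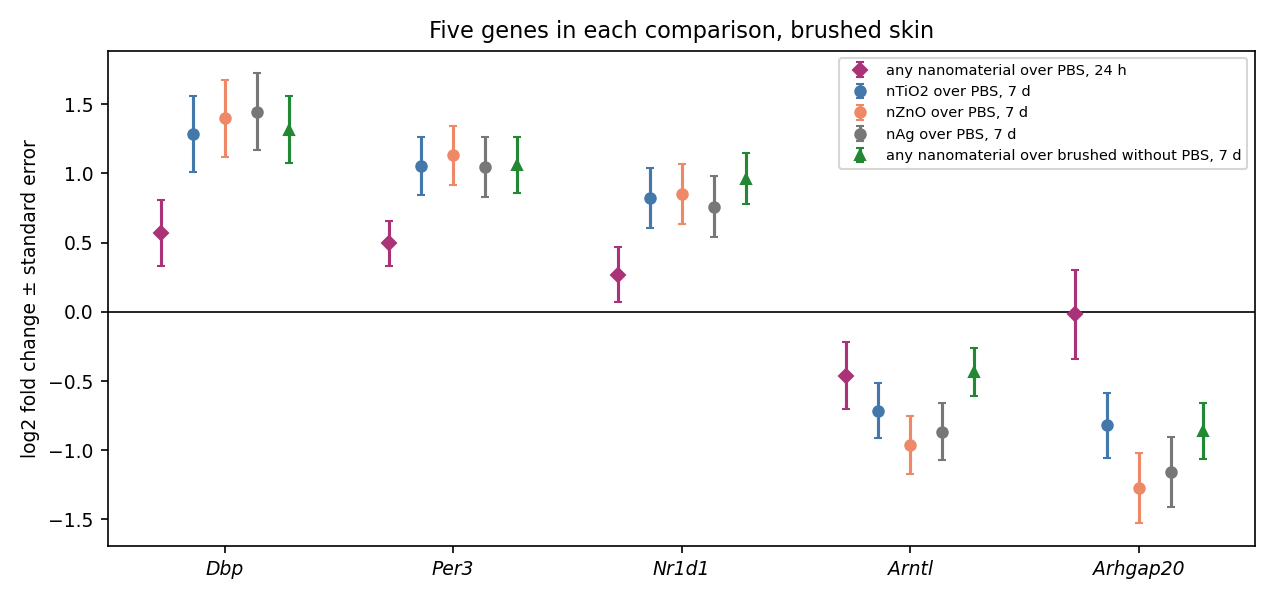
Log2 fold change with standard error (vertical axis) of Dbp, Per3, Nr1d1, Arntl and Arhgap20 in brushed skin, for any nanomaterial over PBS at 24 h, for nTiO2, nZnO and nAg over PBS at 7 d, and for any nanomaterial over brushed mice without PBS at 7 d. Dbp values at 7 d lie between 1.28 and 1.45, above 0.57 at 24 h, and the 3 materials lie within each other's errors for Dbp, Per3 and Nr1d1.

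Set among all 19 groups of the series, the clock genes varied widely with group. Median Dbp was 54.9, 52.1 and 55.7 CPM in the brushed nTiO2, nZnO and nAg groups at 7 d, and 47.9, 47.7 and 63.7 CPM in the same groups at 24 h. It was 8.48 to 15.01 CPM in the groups of intact skin at 7 d, and 15.3 to 22.6 CPM in those at 24 h. Brushed skin without nanomaterial had medians of 20.8 CPM with PBS and 18.7 CPM without PBS at 7 d. At 24 h these medians were 34.45 CPM (22.9 to 66.2) and 42.5 CPM (30 to 59.0), with ranges that overlapped those of the nanomaterial groups at 24 h. The 9 naive mice, which had received nothing, had the highest median of all, 87.0 CPM for Dbp and 32.4 CPM for Per3, and a median of 14.2 CPM for Arntl. Neighbours in this order overlapped: the 3 nanomaterial groups at 7 d could not be ranked for Dbp, with ranges of 30.8 to 85.8, 20.4 to 115 and 24.3 to 78.7 CPM. Clock transcripts cycle over the day in skin, and the part of the hour of collection in these levels was not tested.

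**Figure D4:**
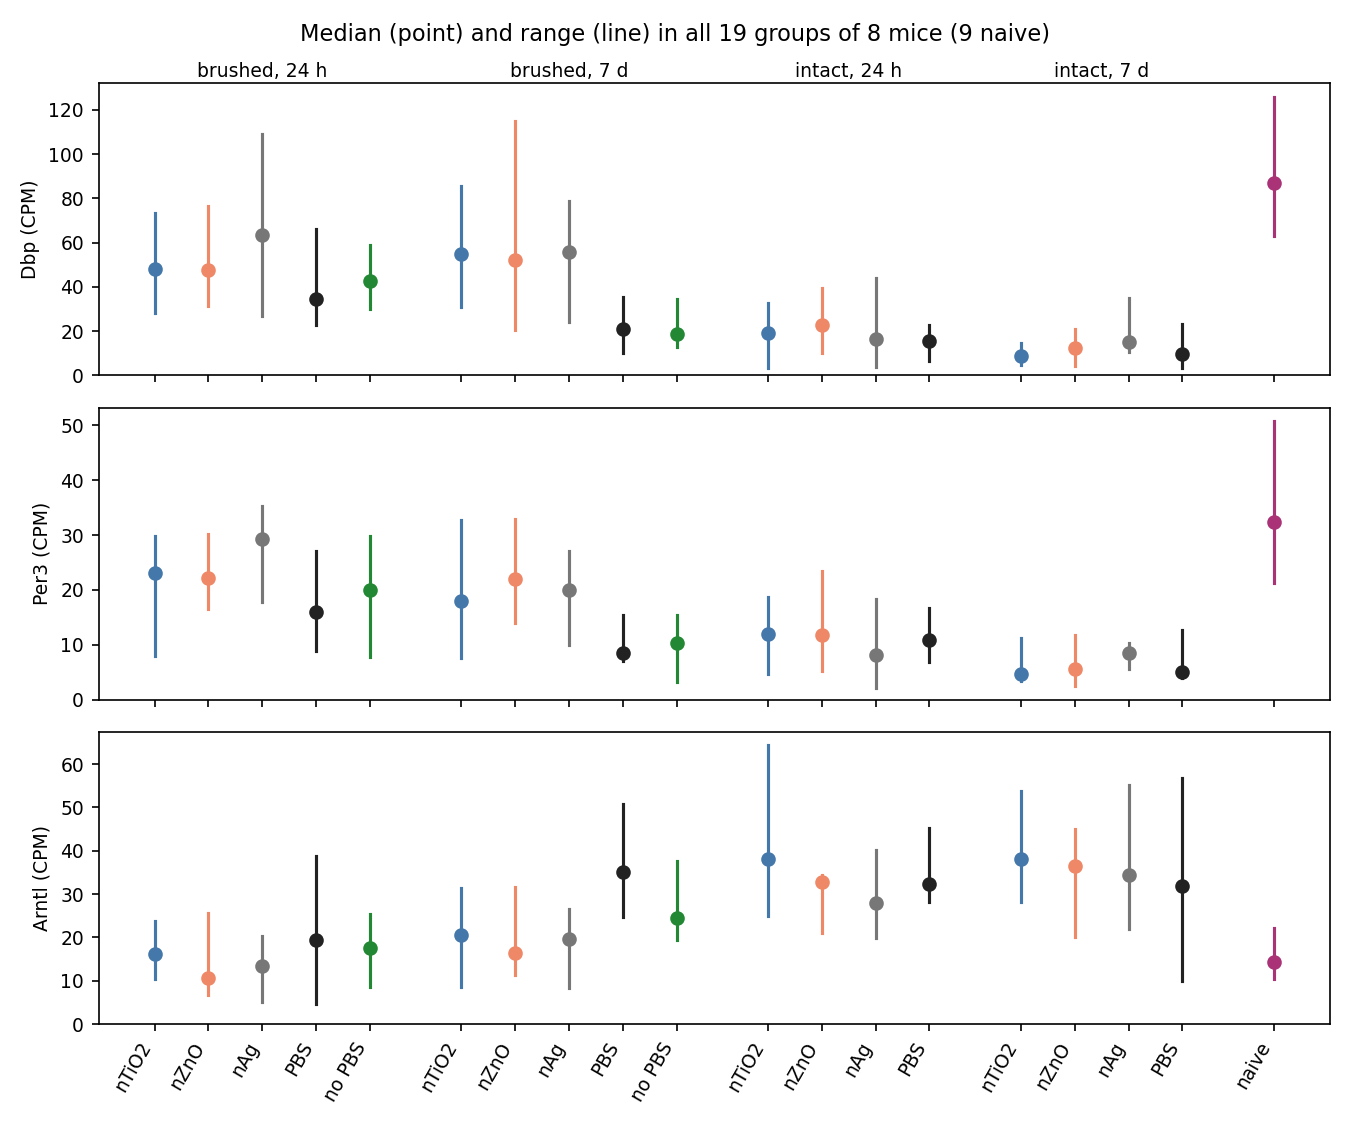
Median (point) and range (line) of Dbp, Per3 and Arntl levels in CPM (vertical axes) in each of the 19 groups, 8 mice each and 9 naive mice, by skin, time and treatment. At 7 d the 3 brushed nanomaterial groups have Dbp medians of 52.1 to 55.7 CPM, the brushed PBS group 20.8 CPM and the naive mice 87.0 CPM.

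Outside the clock list and Arhgap20, no gene was called. Among the genes of next smallest p with a mean of 10 CPM or more was Lamtor2, a subunit of the Ragulator complex on lysosomes, at 0.46 (SE 0.11, edgeR adjusted p = 0.184). Slc31a1, the cell's copper importer, had 78.6, 101 and 134 CPM in nanomaterial mice, against 70.3, 85.1 and 103 CPM in PBS mice (log2 fold change 0.29, SE 0.07, adjusted p = 0.184). On the lower side, Lpar4, a receptor for lysophosphatidic acid, had -0.62 (SE 0.14, adjusted p = 0.184). Klhl13, an adaptor of a ubiquitin ligase, had -0.68 (SE 0.17, adjusted p = 0.419). Further genes of small p were Scarb1 (0.36), Snapc5 (0.39), Adh1 (0.57) and Eola1 (0.38) on the higher side, and Heca (-0.34), Atf5 (-0.30), Tppp3 (-0.54), Nob1 (-0.35), Mat2a (-0.25), Spon2 (-0.65) and Ypel2 (-0.42) on the lower side, as log2 fold changes.

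Genes that respond to metal ions or oxidants were not called. Mt1, a metallothionein that binds zinc and copper, had 354, 435 and 572 CPM in nanomaterial mice, against 323, 431 and 474 CPM in PBS mice, and its log2 fold change was 0.12 (95% interval -0.04 to 0.28). Mt2, its neighbour and close relative, had -0.01 (95% interval -0.18 to 0.17), and Slc30a1, a zinc exporter switched on by zinc, had -0.08 (-0.26 to 0.11). Hmox1, a haem-degrading enzyme induced by oxidants, had 0.34 (95% interval 0.01 to 0.66, adjusted p = 0.916 in edgeR). Over the lists, 8 of 20 genes for metallothioneins and zinc transport were above 0, 10 of 11 for copper and silver handling, and 25 of 35 for the oxidative stress response driven by Nrf2, with median log2 fold changes of -0.05, 0.10 and 0.06 and none called.

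Nor were genes of the wounded epidermis and of neutrophils. Krt6a and Krt16, keratins of activated keratinocytes, had log2 fold changes of 0.18 (95% interval -0.22 to 0.58) and 0.21 (-0.28 to 0.70). S100a8 and S100a9, the alarmins of neutrophils and stressed keratinocytes, had 0.10 (-0.37 to 0.58) and 0.07 (-0.50 to 0.63). Single mice varied widely, S100a8 between 322 and 2623 CPM in nanomaterial mice and between 542 and 1579 CPM in PBS mice. Both genes turned negative without the nAg mice, to -0.19 and -0.30. For nAg minus nTiO2 mice S100a9 had a log2 fold change of 0.97 (95% interval 0.36 to 1.59) and S100a8 of 0.70 (0.19 to 1.22), with edgeR adjusted p-values of 0.44 and 0.487, and nAg replicate 3 alone held the highest level of each. Over the neutrophil list, 11 of 14 tested genes were above 0 and 3 below, with a median of 0.205. Of these, 2 were higher at an unadjusted p under 0.05, against 2.79% of all genes. The smallest p was that of Fpr2, at 0.66 (SE 0.23, edgeR adjusted p = 0.737). In the list of wounded epidermis 20 of 28 were above 0, with a median of 0.08 and 0 at an unadjusted p under 0.05.

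Markers of other cell types that the biopsies could hold are given as the sum over each list. T and NK cell markers summed to 295 to 573 CPM in nanomaterial mice and 270 to 403 CPM in PBS mice, with 13 of 15 tested above 0 and 6 higher at an unadjusted p under 0.05, against 2.79% of all genes. Macrophage markers summed to 4883 to 7475 CPM in nanomaterial mice and 4336 to 6412 CPM in PBS mice. Of 27 tested, 23 were above 0 and 2 were higher at an unadjusted p under 0.05. Skeletal muscle genes summed to 603 to 22610 CPM in nanomaterial mice and 413 to 23110 CPM in PBS mice, the widest spread of the 3 lists. Of 22 tested, 20 were below 0 and 0 had an unadjusted p under 0.05. The part of these cell types in the differences of the clock genes was not tested.

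**Figure D5:**
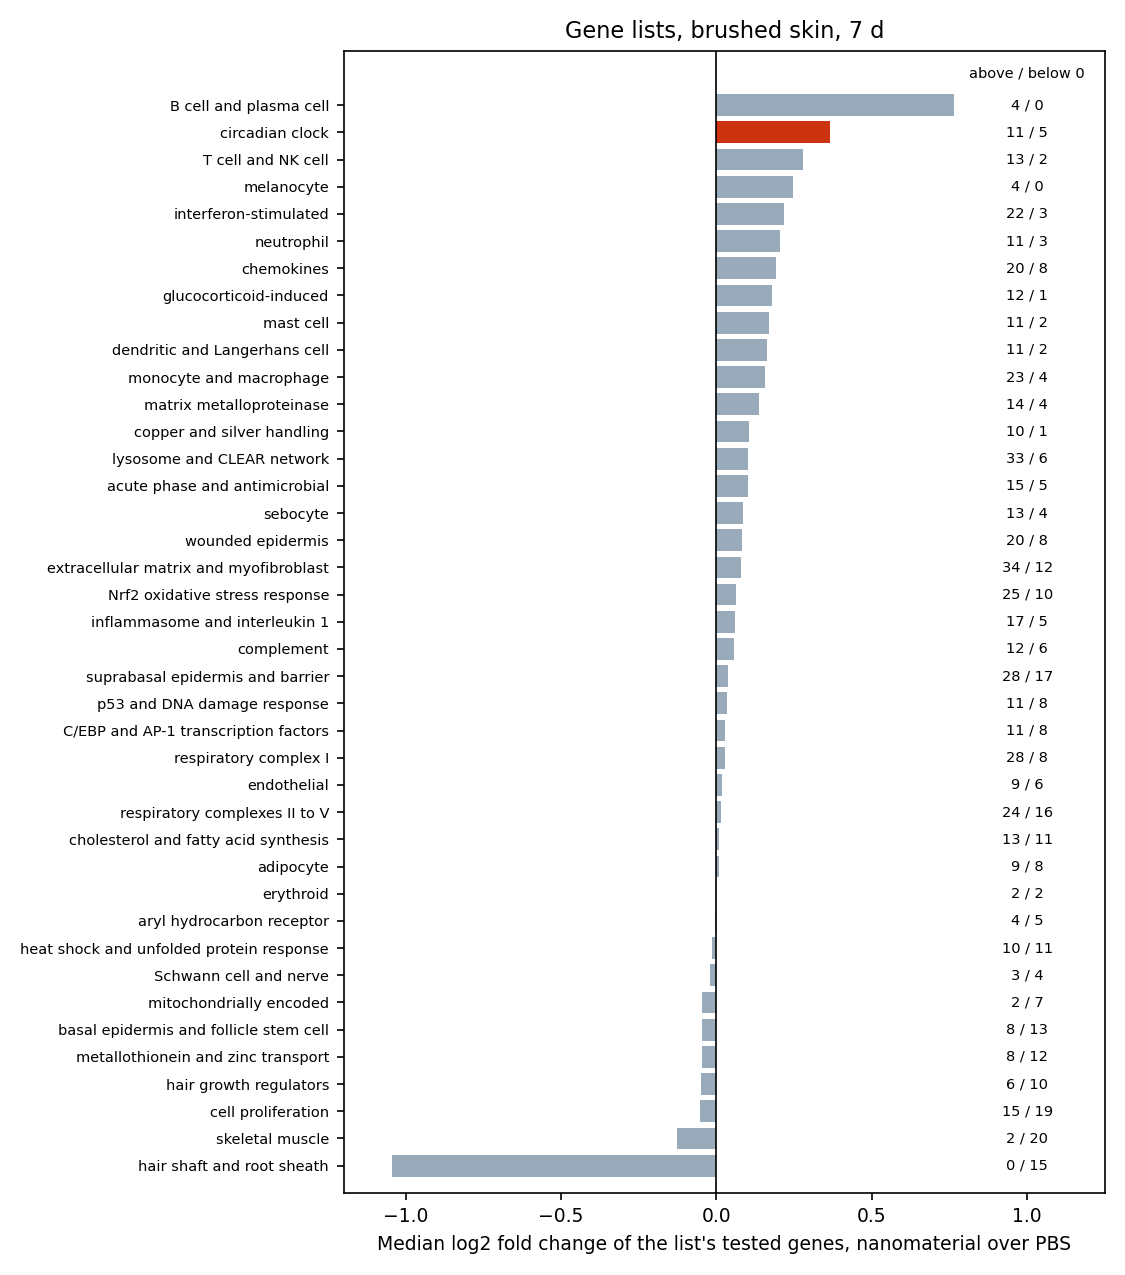
Median log2 fold change of the tested genes of each of 40 gene lists (horizontal axis), nanomaterial over PBS, with the numbers of members above and below 0 at the right. The clock list, in red, has a median of 0.36 with 11 members above 0 and 5 below, and is the only list with called members. The hair shaft and root sheath list has -1.05, with all 15 tested of its 41 members below 0.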

How the data were processed

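Bulk RNA from skin was sequenced from the 3′ end with molecular identifiers. The authors deposited counts of these identifiers per gene and mouse, made with STAR alignment to GRCm39 and the Drop-seq tools, and none had been normalised. The deposited sample sheet gave treatment, pool and RNA integrity, a quality score per mouse. Columns were matched to mice by name, and 0 columns were left unmapped. One nZnO mouse of pool 5 was left out because its group row and its treatment entry conflict on whether the skin was brushed.

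Of 36716 genes, 12248 were tested, each with a count above 5 in 6 or more of the 8 mice of any 1 group. Counts were fitted with edgeR 4.0.16 (TMM scaling, quasi-likelihood test, pool as covariate, R 4.3.3), and p-values were adjusted over all genes tested by Benjamini-Hochberg. A gene was called as stated in the results. Alternatives used limma 3.58.1 and DESeq2 1.42.0, other scaling, filters and covariates, each pool alone, and each mouse or material left out. Intervals are 95% from the fitted standard error and the residual degrees of freedom. Scripts were tested on simulated data. CPM used the total of each mouse.

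The mice compared, the 40 gene lists and the tests were chosen with earlier results of these data known. Genes named were those called, the 10 of smallest p in each direction at a mean of 10 CPM or more, Mt1, Mt2, Slc30a1, Hmox1, Krt6a, Krt16, S100a8 and S100a9, the member of smallest p of each list, and genes called in other comparisons. Clock members and members of the lists in the closing section are named besides, after their values were seen. Some genes that fall under these rules are not reported here, though they remain in the counts.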

Additional observations from a re-analysis of the deposited data

Results flagged for a closer look

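Within the groups of 8 mice, 40 sets of values were screened for a mouse far from the other 7, which chance gives in about 1 of 20 sets, and 9 such values were found in 8 mice. Dbp stood at 85.8 CPM in nTiO2 replicate 2 (nearest mouse 55.9 CPM) and at 115 CPM in nZnO replicate 4 (nearest 64.9 CPM). nTiO2 replicate 4 was highest in its group for Arhgap20, at 11.1 CPM (nearest 6.70 CPM), and for 2210016F16Rik, at 190.2 CPM (nearest 138 CPM). That mouse also had the lowest total count of the 32 and the lowest median correlation with the others, 0.914. The calls of Dbp, Per3, Arntl and Arhgap20 held without it, as did those of Hint1 and 2210016F16Rik.

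Total counts stood apart in nTiO2 replicate 7 (4028559, nearest 1688730), nZnO replicate 1 (2837756, nearest 1386199) and PBS replicate 8 (2264027, nearest 1459719). RNA integrity stood apart in nTiO2 replicate 6 (9.3, nearest 8.4) and nZnO replicate 2 (9.6, nearest 8.8).

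Hint1 and 2210016F16Rik differed between nAg and nTiO2 mice in the test of that difference, by log2 fold changes of 0.41 and -0.60. RNA integrity was not in that test.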

How the results depend on the processing

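The count of 4 called genes in nanomaterial over PBS mice was 3 or 4 under RLE and upper-quartile scaling, the 2 other filters on low counts, a model without pool, the robust fit, a fold threshold of 0.33 dropped or raised to 1, without the nTiO2 group, without the mice of highest and lowest total, with RNA integrity in the model and with brushed mice without PBS as controls. DESeq2 called 7 (Nr1d1 and Lamtor2 among those added), limma voom 7 (Lamtor2 and Lpar4 among those added) and the fit with no filter 7 (adding Gm15560, Krtap19-2 and Krtap19-9a). It was 0 within pool 4, 0 within pool 5, 2 without the nZnO group, 2 without the nAg group, 2 with the nZnO mouse of conflicting label added, 0 with PBS mice of high RNA integrity alone and 0 with those of low, where fewer mice entered in every case but the added mouse. Leaving out each mouse gave 2 to 5. The filter met in every group, which called 3, removed Arhgap20 from the test. Arntl was the gene lost without the nTiO2 group and at a fold threshold of 1. With brushed mice without PBS as controls the 3 called were Dbp, Per3 and Nr1d1, of which 2 were among the 4. Log2 fold changes of the 4 genes kept their sign under every alternative that gave them a value. The RNA integrity, control and label alternatives were chosen after seeing the data. So was leaving out the nTiO2 mice of highest and lowest total, the same mice as those of highest and lowest total of all 32.

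For nTiO2, nZnO and nAg over PBS, with 0 called, DESeq2 called 2, 3 and 3 and the unfiltered fit 15, 6 and 9. Dbp and Per3 were among the genes called in each of these fits. For nAg minus nTiO2, with 2 called, DESeq2 called 6 and leaving out each mouse gave 1 to 3, with Hint1 called in all 16 such fits. For nZnO minus nTiO2 DESeq2 called 16, and for nAg minus nZnO the unfiltered fit called 10. The cause was not tested.

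No paired analysis was possible because the replicate numbers only name mice and pair none across groups.

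Some log2 fold changes turned sign, most of them near 0 and none called in any such fit, with Casq1 at -0.57, Gbp2 at 0.33 and Cpa3 at 0.27 as reported. Under limma voom S100a9 was -0.0369 and Rora 0.0162. Within pool 5 Mt2 was 0.16, S100a8 -0.0645, S100a9 -0.14, Clock 0.11, Rora 0.12 and Uqcrb -0.0206. As the mean of the 3 materials S100a9 was -0.00022. Without nTiO2 mice Mt2 was 0.0194 and Rora 0.0212, without nZnO mice Mt2 was 0.0017 and Cry1 0.0918, and without nAg mice S100a8 was -0.19 and S100a9 -0.30. Without the mice of highest and lowest total, both of them nTiO2 mice, Mt2 was 0.00668 and Rora 0.0228. With RNA integrity in the model Cry1 was 0.00396 and Casq1 0.0873, and with the added nZnO mouse Mt2 was 0.0074. Against brushed mice without PBS Mt2 was 0.10, Slc30a1 0.15, Rora 0.0498, Slc39a6 0.0211, Gbp2 -0.10, Cpa3 -0.0297, Casq1 1.19, Bpgm -0.11, Mdm2 -0.10, mt-Nd6 0.11 and Aldh3a1 0.23. Against PBS mice of high RNA integrity Mt2 was 0.0664, Clock 0.0509, Rora 0.0827 and Bpgm -0.0408, and against those of low RNA integrity Casq1 was 1.75. Leaving out single mice gave ranges of -0.0386 to 0.0154 for Mt2, -0.117 to 0.0597 for Cry1, -0.0454 to 0.0488 for Rora, -0.165 to 0.282 for S100a9 and -0.055 to 0.295 for S100a8.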

Other observations

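Gene groups other than the clock held no called gene in nanomaterial over PBS skin, but several lay mostly on one side of 0, where 6155 of all 12248 genes were above it. Values here are log2 fold changes, and the genes named did not pass the edgeR test (adjusted p = 0.502 or larger). In the list of acute phase and antimicrobial genes 15 of 20 were above 0 and 6 were higher at an unadjusted p under 0.05 (against 2.79% of all genes), among them Saa3 at 0.82 (SE 0.25), Lcn2 at 0.61 (SE 0.24) and Reg3g at 1.24 (SE 0.39), which encode secreted defence proteins. Saa3 had 261, 643 and 1654 CPM (lowest, median, highest) in nanomaterial mice, against 199, 406 and 648 CPM in PBS mice, and 12 of 24 nanomaterial mice were above every PBS mouse. Of 28 chemokine genes 20 were above 0, with Ccl12 at 0.76 (SE 0.27) and Cxcl14 at -0.31 (SE 0.09). At an unadjusted p under 0.05, 6 chemokine genes were higher and 1 was lower.

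Of the B and plasma cell list only 4 of 12 members passed the filter on low counts, all above 0, beside 13 of 15 tested T and NK cell markers. Nkg7, a granule protein of cytotoxic cells, had 13.9, 25.8 and 43.4 CPM in nanomaterial mice, against 9.38, 18.1 and 26.6 CPM in PBS mice (0.62, SE 0.17). Igkc and Jchain, parts of secreted antibodies, had 1.06 (SE 0.37) and 1.21 (SE 0.43), and Igkc reached 617.5 CPM in 1 nanomaterial mouse, against at most 227 CPM in PBS mice. In the lists, 22 of 25 interferon-stimulated genes, 33 of 39 lysosomal genes and 12 of 13 glucocorticoid-induced genes were above 0, with medians of 0.22, 0.10 and 0.18. Of these, 0, 5 and 4 were higher at an unadjusted p under 0.05, against 2.79% of all genes. Genes of a list can vary together between mice, and the counts above 0 were not tested. Per1 is also in the glucocorticoid list, and its members Fkbp5 and Tsc22d3 stood at 0.64 (SE 0.24) and 0.49 (SE 0.18).

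Hair shaft and root sheath genes lay on the lower side, with all 15 tested below 0 and a median of -1.05. Of these, 2 were lower at an unadjusted p under 0.05, against 2.6% of all genes. Only these 15 of the 40 list members in the count table passed the filter on low counts, which 1 group alone can meet. A gene of low count can so enter the test through the group where it is high, and the count below 0 is no test of direction. Their sum was 62.2, 229 and 4353 CPM (lowest, median, highest) in nanomaterial mice, against 208, 890 and 6356 CPM in PBS mice, with broad overlap between the groups. Krt75, a keratin of the follicle's companion layer, had the smallest p at -1.22 (SE 0.36, adjusted p = 0.513).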
